A study of Mus musculus with 12 samples.

Results

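Read density over 9 tumor suppressor genes was measured in the 6 IgG background libraries of a chromatin immunoprecipitation study of mpkCCD cells, to see whether DNA of any of these genes was low in the line. The genes were Trp53, Rb1, Rbl1, Rbl2, Cdkn2a, Cdkn2b, Cdkn1a, Nf2 and Vhl, chosen by name, and they are 9 of 23862 named genes on chromosomes 1 to 19, X and Y. Each was represented by its longest RefSeq transcript interval, introns included. mpkCCD (clone 11) is a mouse line with features of principal cells of the renal cortical collecting duct, which the labels call transformed. The cells, at passages 6 to 10, were confluent on permeable supports and were harvested 24 h after serum removal. The 3 dDAVP libraries came from cells kept with 0.1 nM dDAVP, a vasopressin analog selective for the V2 receptor, and the 3 vehicle libraries from cells kept without it. All groups share the one clone and the same culture, and no library from normal mouse DNA was used, so a level here is relative to the other genes of the same library.

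The line comes from mice carrying SV40 large T antigen, a viral protein that binds p53 and the RB family. p53, encoded by Trp53, is a transcription factor that stops the cell cycle or starts cell death after DNA damage. RB proteins hold E2F factors, and with them entry into S phase, until cyclin-dependent kinases release them. Cdkn2a and Cdkn2b encode inhibitors of those kinases and a protein that stabilises p53, and established cell lines often lose this pair of neighbouring genes. Nf2 and Vhl are known as tumor suppressors of nerve sheath and meninges and of the kidney. IgG precipitates little specific chromatin, so its reads mostly follow the amount of DNA and how well it is recovered, sequenced and mapped. They say nothing of the genes' expression, and cell type markers cannot be checked with them.

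The starts of Cdkn2a are shown because its measured segments begin at them, and that of Cdkn2b because this pair had the lowest levels. A start of Cdkn1a is shown because it was the gene richest in GC. Each line gives the 100 bases before a RefSeq start on GRCm38.p6, which has the coordinates of mm10, 5′ to 3′ on the gene's strand, with CG dinucleotides in capitals. RefSeq windows matched 8 of the 9 genes.
Cdkn2a, Arf start, chr4:89294620-89294719, minus strand: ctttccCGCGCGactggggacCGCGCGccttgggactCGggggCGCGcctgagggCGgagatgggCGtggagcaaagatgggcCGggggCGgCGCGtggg
Cdkn2a, Ink4a start, chr4:89282193-89282292, minus strand: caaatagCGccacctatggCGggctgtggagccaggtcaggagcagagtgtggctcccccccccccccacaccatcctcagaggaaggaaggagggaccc
Cdkn2b, chr4:89311033-89311132, minus strand: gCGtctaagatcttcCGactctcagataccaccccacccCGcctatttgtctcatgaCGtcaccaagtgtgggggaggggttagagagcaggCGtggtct
Cdkn1a, inner start, chr17:29093669-29093768, plus strand: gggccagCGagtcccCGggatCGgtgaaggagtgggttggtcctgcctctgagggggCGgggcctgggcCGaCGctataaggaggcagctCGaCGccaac

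The Arf start had 40 CG dinucleotides in the 250 bases before it, a number reached by 1.3% of 32851 RefSeq windows of that length, whose median was 6. The Ink4a start had 7, the Cdkn2b start 12 and the inner Cdkn1a start 19. The 250 bases before the outer Cdkn1a start held a pair of p53-type half-site cores, CATGNNNNNNCATG, which reads the same on both strands. The pair is shown with 3 bases on either side and its cores in capitals, at chr17:29090928-29090947 on the plus strand, 31 bases before that start.
Cdkn1a core pair: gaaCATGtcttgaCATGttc
It was the only such pair in the 11 windows of these genes, and 156 windows (0.475%) of all windows held one. A match of letters is a description and not a measured binding site.

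Library totals over all intervals ran from 10588927 to 19748658 reads, and the median interval held 92 to 155 reads. Across genes, experiments 1 and 2 of vehicle agreed within sampling noise, with a chi-square of 1.011 per degree of freedom (p = 0.157). The same dDAVP pair had 1.018 (chi-square test over genes, p = 0.0410), barely above sampling noise. All other pairs of libraries had 1.683 to 147.9. Experiments 1 and 2 of each group were counted as 1 sample, so means cover 4 samples, 2 per group. Nothing in the labels says that the samples came from separate cultures, so the spread may be technical. dDAVP experiment 3 stood apart. Its level over that of the other 5 libraries rose with GC content, from a median of 0.331 in autosomal genes under 40% GC to 3.30 in genes of 55% GC or more, so the ratios of the 9 genes to their chromosome are given with and without it. Density is reads per kb and per total reads. The ratio to the chromosome divides it by the median of genes of at least 5 kb on the same chromosome, and the ratio to the autosomes by the median of all 16539 such autosomal genes.

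None of the 9 genes was near 0. Their mean ratio to the chromosome lay between 0.698 for Cdkn2a and 1.12 for Rbl1, and without dDAVP experiment 3 between 0.681 for Cdkn2b and 1.23 for Rbl1. For scale, the median gene of the Y chromosome lay at 0.0124 to 0.0212 of the autosomal median in the 6 libraries. A gene was called low when its ratio was below 0.5 in each of the 6 libraries and high when it was above 1.5 in each. Against the chromosome 0 of 9 genes were low, where 0.103% of all reference genes were, and 0 of 9 were high, where 0.333% were. Against the autosomes 0 of 9 were low (background 0.157%) and 0 of 9 were high (background 1.02%). With backgrounds this small, a count of 0 does not set the 9 genes apart from the others. A gene at about 0.5 of its chromosome would seldom lie below 0.5 in all 6 libraries. The rule therefore sees only deeper reductions, and loss of part of the copies was not tested. With density matched on GC content, 0 of 9 were low against the chromosome (background 0.133%) and 0 of 9 against the autosomes (background 0.218%).

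**Figure D1:**
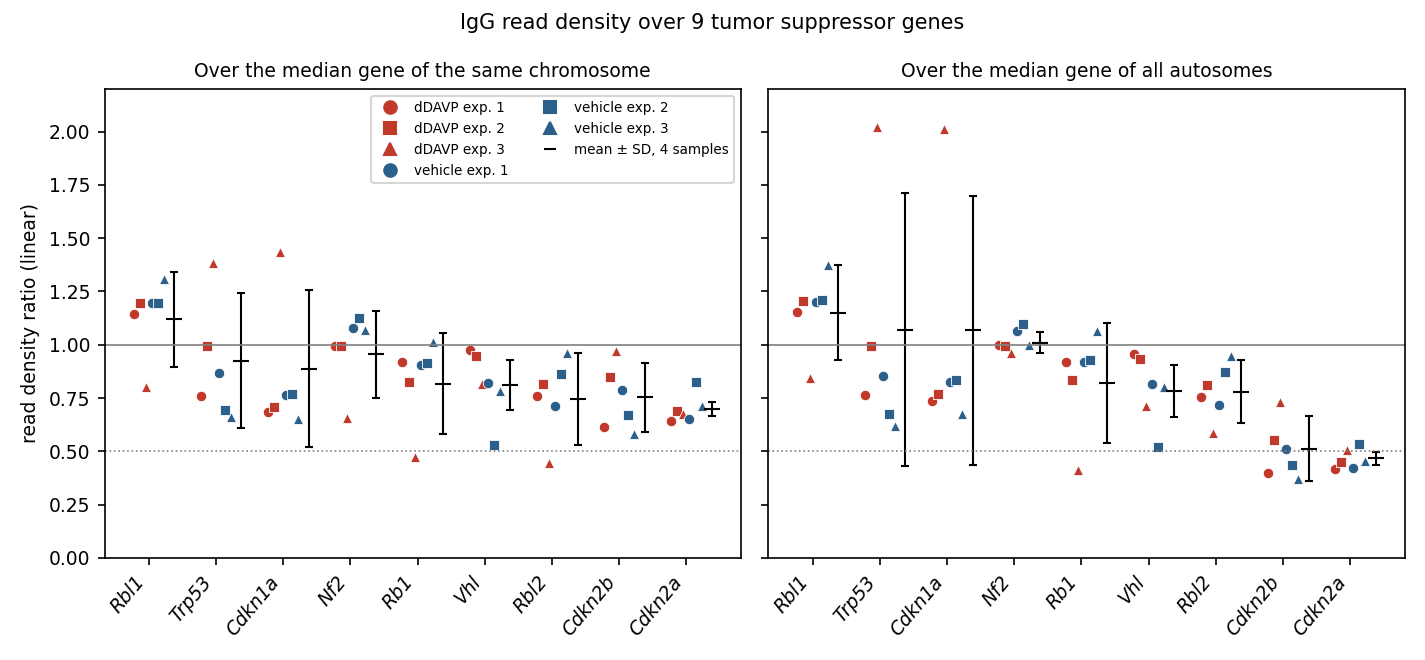
Read density ratio of the 9 genes (y axis, linear, no unit) in each of 6 IgG libraries, over the median gene of the same chromosome (left) and of all autosomes (right); red is dDAVP, blue vehicle, symbols are experiments, black bars are mean ± SD over 4 samples, and the dotted line is at 0.5. Cdkn2a lies at 0.417 to 0.536 of the autosomes in every library, and Trp53 and Cdkn1a stand at about 2.02 and 2.01 in dDAVP experiment 3 alone.

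Cdkn2a had the lowest mean of the 9 genes over the 4 samples on both scales, while without dDAVP experiment 3 Cdkn2b was lower on both and Cdkn1a (0.705) barely lower against the chromosome, all within their spread. Cdkn2a encodes p16Ink4a, which inhibits CDK4 and CDK6, and p19Arf, which blocks the p53 ligase MDM2. It spans chr4:89274473-89294619 on the minus strand of mm10 (20.15 kb, 43.71% GC). With dDAVP, experiments 1, 2 and 3 gave 67, 69 and 94 reads over it. With vehicle they gave 56, 68 and 99, and values below follow the same order. The ratio to the chromosome was 0.645, 0.690 and 0.673 with dDAVP and 0.651, 0.826 and 0.714 with vehicle. The 95% Poisson interval, which covers counting error only, was widest in vehicle experiment 2 at 0.641 to 1.047 and had its lowest bound, 0.491, in vehicle experiment 1. All 6 libraries lay below 1, in a narrow range, and the mean was 0.698 ± 0.034 (SD, n = 4). Without dDAVP experiment 3 it was 0.707 ± 0.036 (SD, n = 3).

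Against the autosomes Cdkn2a lay lower still, and chromosome 4 as a whole was low too. The ratio was 0.417, 0.450 and 0.505 with dDAVP and 0.421, 0.536 and 0.455 with vehicle, a mean of 0.468 ± 0.031 (SD, n = 4), or 0.456 ± 0.023 (SD, n = 3) without dDAVP experiment 3. It was below 0.5 in 4 of 6 libraries. The median of 1064 reference genes on chromosome 4 lay at 0.637 to 0.750 of the autosomal median across the 6 libraries. With a limit of 0.67 Cdkn2a was low against the autosomes in each library, the only one of the 9 genes, where 1.58% of all reference genes and 9.02% of those on chromosome 4 were.

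Both parts of Cdkn2a carried reads. The 7.72 kb from the Ink4a start onward, shared by both transcripts, had a ratio to the chromosome of 0.707 ± 0.208 (SD, n = 4), and the 12.43 kb that only the Arf transcript spans had 0.693 ± 0.158 (SD, n = 4). The shared part was the lower in 5 of 6 libraries, and dDAVP experiment 3 alone had the opposite order, at 1.009 against 0.464. Without that library the shared part had 0.606 ± 0.066 and the Arf part 0.769 ± 0.052 (SD, n = 3), and the ranges over 5 libraries, 0.455 to 0.729 and 0.655 to 0.886, overlapped. Reads covered 9.87 to 21.6% of the bases of Cdkn2a. That was 0.620 to 0.992 of the share expected from its read number, inside the central 95% of reference genes in every library. With so few bases covered, a missing stretch would lower this value only a little, so it is a weak check for one.

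Cdkn2b encodes p15Ink4b, another CDK4 and CDK6 inhibitor, and lies next to Cdkn2a at chr4:89306289-89311032, minus strand. At 4.744 kb it is shorter than the reference genes and had only 13 to 32 reads per library, 115 in all. Its ratio to the chromosome was 0.613, 0.850 and 0.973 with dDAVP and 0.789, 0.671 and 0.582 with vehicle, a mean of 0.754 ± 0.162 (SD, n = 4), or 0.681 ± 0.086 (SD, n = 3) without dDAVP experiment 3. All 6 values lay below 1, and the counting interval reached above 1 in each library but vehicle experiment 3, where it was 0.350 to 0.909. Against the autosomes it lay at 0.371 to 0.730, mean 0.512 ± 0.153 (SD, n = 4), or 0.440 ± 0.060 (SD, n = 3) without dDAVP experiment 3, and below 0.5 in 3 of 6 libraries.

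The genes around the pair varied in level. The flank level was the summed reads over the summed length of the 7 other genes of at least 5 kb that reach within 1 Mb. Long genes weigh most in it. Focad, at 316.4 kb and partly beyond 1 Mb, far outweighs the next longest, Mtap (43.72 kb). The ratio to the flank is therefore mostly a ratio to Focad and not to the genes nearest the pair. Relative to this flank, Cdkn2a lay at 0.623 and 0.655 in dDAVP experiments 1 and 2 and at 0.597, 0.756 and 0.576 with vehicle. In dDAVP experiment 3 it lay at 1.53, where the summed flank was at 0.331 of the autosomes against 0.669 to 0.790 in the other 5 libraries. Without that library the ratio to the flank was 0.630 ± 0.051 (SD, n = 3) for Cdkn2a and 0.622 ± 0.126 for Cdkn2b. The flank of Cdkn2b had 8 genes, Cdkn2a among them. The nearest gene of at least 5 kb on one side was Mtap, an enzyme of methionine salvage, 93.38 kb away, with a ratio to the chromosome of 0.827 ± 0.186 (SD, n = 4). On the other side it was Dmrta1, a DM-domain gene 393.6 kb away, at 1.19 ± 0.37. The ranges of Mtap (0.554 to 0.985) and Cdkn2a (0.645 to 0.826) overlapped, while Dmrta1 (0.855 to 1.73) lay above Cdkn2a. Without dDAVP experiment 3 Mtap lay at 0.864 to 0.985, above Cdkn2a too.

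**Figure D2:**
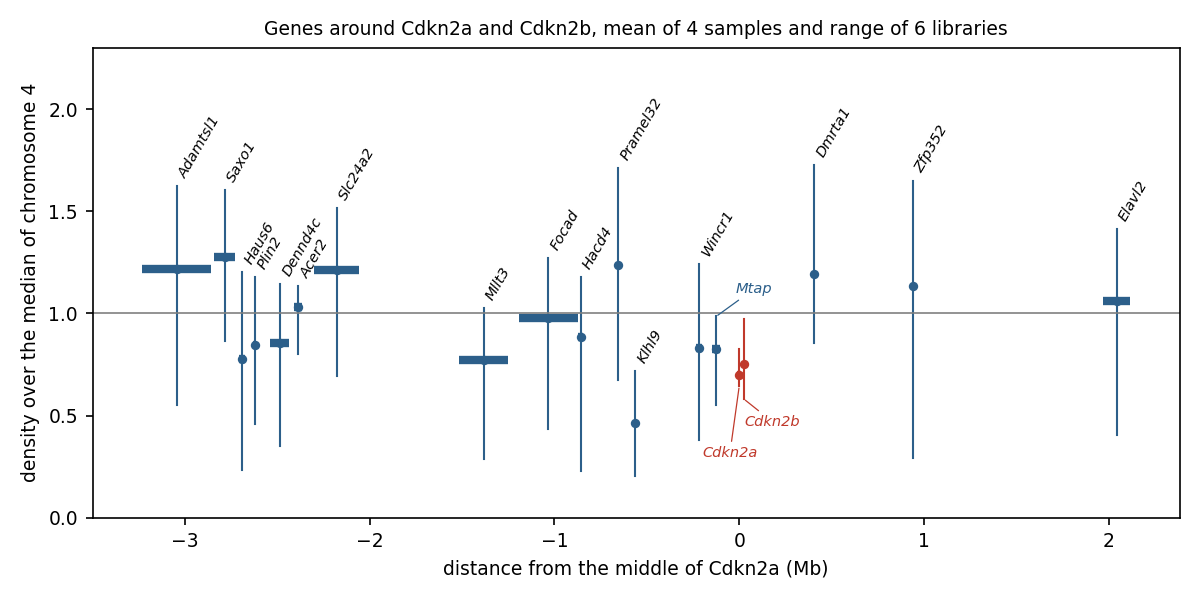
Ratio of read density to the median of chromosome 4 (y axis, linear) for Cdkn2a and Cdkn2b (red) and genes of at least 4 kb around them (blue), by distance in Mb from the middle of Cdkn2a; points are means over 4 samples, thick bars gene length and thin bars the range of 6 libraries. The 2 red genes lie at 0.698 and 0.754, Klhl9 (4.217 kb, 64 reads in all) at 0.465 and Dmrta1 at 1.19.

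With density matched on GC content, Cdkn2a lay at 0.614 to 0.775 of its chromosome in 5 libraries and at 0.934 in dDAVP experiment 3. In 4 libraries (dDAVP experiments 1 and 2, vehicle experiments 1 and 3) this was below the central 95% of autosomal reference genes. Unmatched, it was below that range in dDAVP experiment 1 only. Cdkn2b, which is shorter than those genes, was below that range in 2 libraries when matched and in 1 when not. The share of reference genes below it in as many libraries was not computed, and dDAVP experiments 1 and 2 count as 1 sample. Among reference genes within 1.5-fold of its length, Cdkn2b stood unmatched at percentiles 6.42 to 32.7 in the 6 libraries. Cdkn2a stood at 1.83 to 30.0 among those of its length. Among the 17 reference genes low against their chromosome, with means of 0.0192 to 0.399, 14 were on chromosome 4 and 0 of these within 3 Mb of Cdkn2a. Repeat content and mappability of the intervals were not tested.

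Trp53 lies at chr11:69580359-69591873 on the plus strand (11.52 kb, 49.10% GC). It had 70, 87 and 215 reads with dDAVP and 65, 49 and 77 with vehicle. Its ratio to the chromosome was 0.759, 0.994 and 1.38 with dDAVP and 0.869, 0.692 and 0.661 with vehicle. 5 libraries lay below 1 and dDAVP experiment 3 above it. The mean was 0.925 ± 0.318 (SD, n = 4), and 0.773 ± 0.108 (SD, n = 3) without that library. Its neighbours Wrap53 and Atp1b2 lay at 0.936 ± 0.179 and 0.843 ± 0.164 (SD, n = 4), and at 0.865 and 0.762 without it.

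Cdkn1a encodes p21, the kinase inhibitor best known as a target of p53, and carries the core pair printed above. It lies at chr17:29090986-29100722 on the plus strand (9.737 kb) and had the highest GC content of the 9 genes, 53.89%. Reads numbered 57, 57 and 181 with dDAVP and 53, 51 and 71 with vehicle. The ratio to the chromosome was 0.684, 0.709 and 1.43 with dDAVP and 0.766, 0.767 and 0.653 with vehicle. dDAVP experiment 3 again stood alone above 1. The mean was 0.888 ± 0.367 (SD, n = 4), and 0.705 ± 0.058 (SD, n = 3) without it. The 6.951 kb of its shorter transcript (55.75% GC) had 0.827 ± 0.445 and the 2.786 kb outside it (49.25% GC) 1.04 ± 0.19 (SD, n = 4). The former was the lower in 5 of 6 libraries, and dDAVP experiment 3 alone had the opposite order. In the other 5 libraries the parts did not overlap, at 0.515 to 0.696 against 0.797 to 1.061, with means of 0.607 ± 0.081 and 0.952 ± 0.084 (SD, n = 3). The genes on either side, Trp53cor1 and Rab44, had means of 0.984 ± 0.142 and 0.993 ± 0.518 (SD, n = 4), and of 0.924 and 0.735 without that library.

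Over the median of the other 5 libraries, the autosome ratio of dDAVP experiment 3 was 2.65 for Trp53 and 2.61 for Cdkn1a, where autosomal genes of 45 to 50% GC had a median of 1.42 and those of 50 to 55% GC 2.45. Rb1, the gene lowest in GC at 38.82%, lay at 0.450. Trp53 thus lay above the median of its GC class and Cdkn1a near that of its own. Matched on GC, the same value was 1.55 for Trp53, 0.878 for Cdkn1a and 1.24 for Rb1. The matched level of Trp53 in dDAVP experiment 3, 1.21, still lay above the 0.706 to 1.014 of the other 5 libraries.

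**Figure D3:**
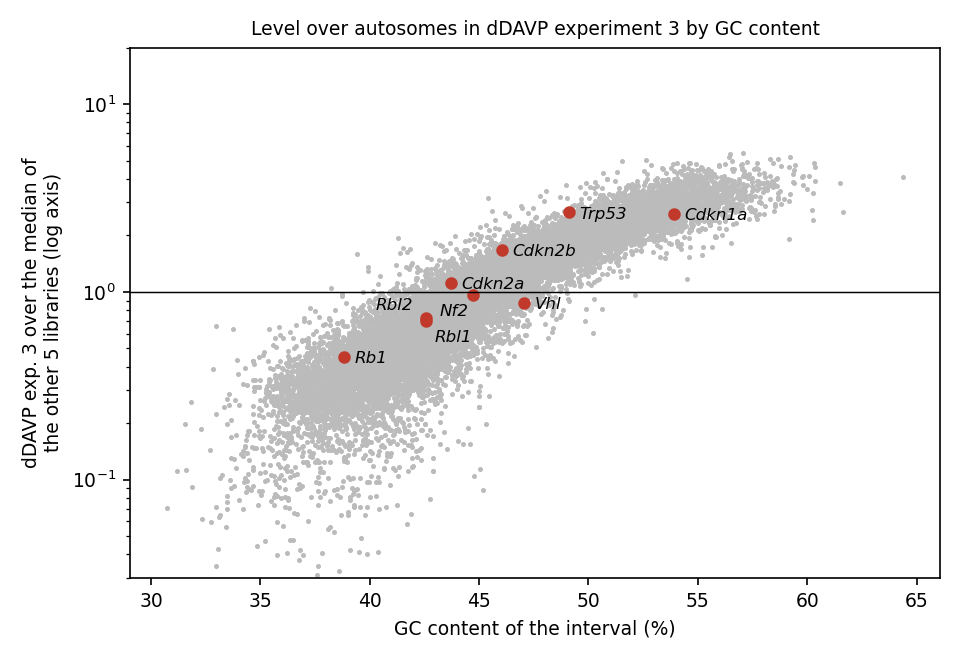
Level over the autosomes in dDAVP experiment 3 divided by the median of the other 5 libraries (y axis, log) against GC content in percent (x axis); grey points are autosomal genes of at least 5 kb and red points the 9 genes. Red points run from Rb1 at 0.450 (38.82% GC) to Trp53 at 2.65 (49.10% GC), without a steady rise. Cdkn1a, highest in GC at 53.89%, lies at 2.61, and Vhl (0.871 at 47.06% GC) lies below the cloud's middle.

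Rb1, the retinoblastoma gene, spans chr14:73195502-73325791 on the minus strand and is the longest of the 9 (130.3 kb), with 5336 reads. Its ratio to the chromosome was 0.919, 0.827 and 0.473 with dDAVP and 0.903, 0.915 and 1.014 with vehicle. Its reads numbered 955, 829 and 498 with dDAVP and 791, 763 and 1500 with vehicle. Only dDAVP experiment 3 lay below 0.5. The mean was 0.818 ± 0.237 (SD, n = 4), and 0.932 ± 0.073 (SD, n = 3) without that library. The nearest genes were Rcbtb2 at 0.957 ± 0.048 and Itm2b at 0.741 ± 0.144 (SD, n = 4), and without that library 0.933 and 0.812.

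Rbl2 encodes p130, the RB relative of resting cells, at chr8:91070057-91123844 on the plus strand. It had 324, 332 and 292 reads with dDAVP and 255, 295 and 551 with vehicle. Its ratio to the chromosome was 0.759, 0.818 and 0.445 with dDAVP and 0.711, 0.865 and 0.960 with vehicle. All 6 libraries lay below 1 and dDAVP experiment 3 was the lowest. The mean was 0.745 ± 0.216 (SD, n = 4) and 0.845 ± 0.099 (SD, n = 3) without it, beside 0.879 ± 0.220 for Chd9 and 0.927 ± 0.421 for Rpgrip1l (0.978 and 1.13 without it). Aktip overlaps Rbl2 and shares reads with it.

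Rbl1 encodes p107, the third protein of the family, at chr2:157145894-157204534 on the minus strand, and was the highest of the 9 genes. It had 539, 537 and 457 reads with dDAVP and 465, 446 and 872 with vehicle. Its ratio to the chromosome was 1.145, 1.198 and 0.800 with dDAVP and 1.195, 1.198 and 1.309 with vehicle. 5 libraries lay above 1, with counting intervals that began at 1.05 or higher, and dDAVP experiment 3 lay below it. The mean was 1.12 ± 0.22 (SD, n = 4) and 1.23 ± 0.07 (SD, n = 3) without that library. Both neighbours were higher still, Samhd1 at 1.40 ± 0.10 and Mroh8 at 1.36 ± 0.08 (SD, n = 4), and at 1.36 and 1.40 without that library. The parts of Rbl1 differed by less than their spread, at 1.11 ± 0.17 for the 29.54 kb of its shorter transcript and 1.13 ± 0.31 for the rest (SD, n = 4), or 1.17 ± 0.13 and 1.28 ± 0.10 (SD, n = 3) without that library.

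Nf2 encodes merlin, a membrane-cytoskeleton protein upstream of the Hippo kinases, at chr11:4765845-4849544 on the minus strand (83.7 kb, 4115 reads). It lay closest to the autosomal median: 1.001, 0.996 and 0.961 with dDAVP and 1.063, 1.099 and 0.999 with vehicle, a mean of 1.01 ± 0.05 (SD, n = 4). Against chromosome 11 the mean was 0.956 ± 0.204, and dDAVP experiment 3 was lowest at 0.658, where that chromosome's own level was 1.46. Without it the mean was 1.06 ± 0.05 (SD, n = 3). The 6.489 kb at one end of Nf2, richer in GC at 52.18%, had 1.33 ± 0.50 against 0.925 ± 0.261 for the other 77.21 kb (44.11% GC). dDAVP experiment 3 set them apart, at 2.07 against 0.539, and in the other 5 libraries their ranges overlapped, with means of 1.08 ± 0.07 and 1.05 ± 0.06 (SD, n = 3). Its neighbours Cabp7 and Nipsnap1 lay at 1.08 ± 0.52 and 1.02 ± 0.03 (SD, n = 4), and at 0.851 and 1.03 without that library.

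Vhl encodes the substrate-binding subunit of the ubiquitin ligase that degrades HIF-α, at chr6:113624021-113631633 on the plus strand (7.613 kb). Reads numbered 58, 54 and 50 with dDAVP and 41, 25 and 66 with vehicle. The ratio to the chromosome was 0.974, 0.948 and 0.818 with dDAVP and 0.822, 0.529 and 0.785 with vehicle. Vehicle experiment 2 was the lowest, with a counting interval of 0.342 to 0.781 that overlaps the 0.590 to 1.115 of vehicle experiment 1. The mean was 0.810 ± 0.118 (SD, n = 4), and 0.807 ± 0.144 (SD, n = 3) without dDAVP experiment 3, beside 0.918 ± 0.101 for Brk1 and 0.979 ± 0.452 for Irak2 (0.870 and 0.754 without it).

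**Figure D4:**
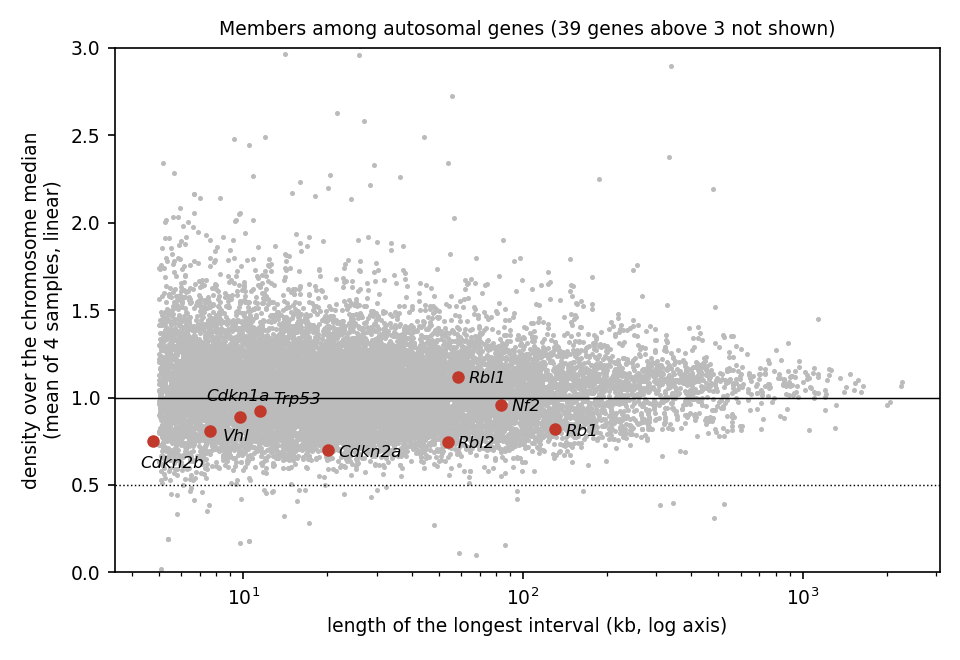
Mean ratio to the chromosome over 4 samples (y axis, linear) against interval length in kb (x axis, log) for autosomal genes of at least 5 kb (grey) and the 9 genes (red); lines mark 1 and 0.5. All red points lie between 0.698 and 1.12, above the line at 0.5, and Cdkn2b is shorter than any grey point.

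Ordered by the ratio to the autosomes, the genes ran Rbl1 (1.15), Trp53 (1.07), Cdkn1a (1.07), Nf2 (1.01), Rb1 (0.821), Vhl (0.782), Rbl2 (0.779), Cdkn2b (0.512) and Cdkn2a (0.468). No neighbours in this order differed by more than the SD of their difference over the 4 samples. The widest step, from Rbl2 to Cdkn2b, was 0.266 with an SD of 0.299 and held in 5 of 6 libraries. It was reversed in dDAVP experiment 3, at 0.588 for Rbl2 against 0.730 for Cdkn2b. An exact two-sided sign-flip test over 4 samples gave p = 0.25 for it, unadjusted over the 8 steps, where the smallest possible is 0.125. The order was set by the same values, and 4 samples cannot give a smaller p. The test therefore cannot decide whether these genes differ. Without dDAVP experiment 3, Trp53 and Cdkn1a lay at 0.754 and 0.752, below Nf2 (1.03), Rb1 (0.956), Rbl2 (0.842) and Vhl (0.805), and the lowest place passed from Cdkn2a (0.456) to Cdkn2b (0.440). The order of these last genes was that way in 3 of 6 libraries.

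Partner genes, in lists chosen by function, showed no member that was low or high against its chromosome in each library, beside backgrounds of 0.103% and 0.333%. Of 24 p53 pathway genes the median ratio was 0.905, with Gadd45a, a DNA damage gene, lowest at 0.464 and Trp73, a p53 relative, highest at 1.28. Of 30 RB and cell cycle genes it was 0.943, from Cdkn2c, which encodes the kinase inhibitor p18, at 0.482 to E2f1 at 1.39. Of 16 VHL and oxygen-sensing genes it was 0.869, from the elongin gene Elob at 0.616 to Epo, which encodes erythropoietin, at 1.20. Of 19 NF2 and Hippo genes it was 0.866, from Amotl2, which encodes an angiomotin, at 0.656 to the kinase gene Stk4 at 1.29. Of 29 other tumor suppressors it was 1.03, from the histone methyltransferase gene Setd2 at 0.643 to Wt1 at 1.63. Of 10 genes around Cdkn2a on chromosome 4 it was 1.02, from Klhl9, which encodes a ubiquitin ligase adaptor, at 0.465 to the interferon gene Ifne at 1.84. Ifne rests on 37 reads in all, Gadd45a on 51, Klhl9 on 64 and Cdkn2c on 71, so counting error limits them. These genes, Elob and Epo are also shorter than the 5 kb of the reference genes. The 9 genes themselves had a median of 0.818 and all reference genes 1.04. Without dDAVP experiment 3 these were 0.807 and 0.997. The lists then had medians of 0.931 (p53 pathway), 0.887 (RB and cell cycle), 0.871 (VHL), 0.898 (NF2 and Hippo), 0.939 (other tumor suppressors) and 1.13 (genes around Cdkn2a). The lowest gene of the RB list was then Cdkn1b and of the other tumor suppressors Rassf1, and the highest of the p53, RB and VHL lists were Fas, Ccne2 and Epas1.

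The study asked how vasopressin changes transcription, and the IgG libraries are its background. In edgeR's quasi-likelihood test, 0 of 30912 intervals (0%) were called between dDAVP and vehicle with Benjamini-Hochberg adjustment at 0.05. At an unadjusted p under 0.05 it had 236 intervals, a smaller share than 0.05 of those tested, all higher with dDAVP. That number was 1 without vehicle experiment 3 and 672 (459 higher) without dDAVP experiment 3. DESeq2 had 1117 and called 0. With edgeR counts offset for GC content, 282 intervals had an unadjusted p under 0.05, 187 higher and 95 lower with dDAVP. Of the 9 genes 0 were called. With all libraries Trp53 had the largest log2 ratio of dDAVP over vehicle among the 9 genes, 1.03 (SE 0.53, 95% interval -0.28 to 2.33, adjusted p = 0.619, edgeR), followed by Cdkn1a at 0.84 (SE 0.58, adjusted p = 0.619, edgeR). Without dDAVP experiment 3 these were 0.34 and 0.00, and Vhl, at 0.37, had the largest. Rb1 had -0.63 (SE 0.45, adjusted p = 0.619, edgeR) and -0.17 without that library. Cdkn2a had -0.01 (SE 0.42, 95% interval -1.04 to 1.02, adjusted p = 0.989, edgeR), so a 2-fold difference either way lies at the edge of its interval. The other 5 genes lay between -0.36 and 0.48. No gene of the 5 functional lists was called in either direction, and their median log2 ratios ran from -0.27 (p53 pathway, 7 of 24 positive) to 0.58 (VHL and oxygen sensing, 11 of 16 positive), beside 0.01 over all intervals. Without dDAVP experiment 3 these medians were -0.06 and 0.12. Of the genes around Cdkn2a 8 were tested, 0 were called, and 7 were negative, with a median of -0.48, which was -0.02 over 9 genes without that library.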

How the data were processed

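Values come from the 6 IgG libraries; the Pol II samples were not used here. Per the labels' protocols, cross-linked chromatin was sheared and sequenced as 50-bp reads, which were mapped to mm10 with BWA. The submitters' processing notes also list SAMtools and bedtools without a version. The authors deposited, per RefSeq transcript interval, the read count and the fraction of bases covered by at least 1 read. No normalization was applied to these counts, and duplicate removal is not given in the sources used here. Reads in overlapping or antisense genes are counted for each, without strand.

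Of 33062 intervals common to all libraries, 32763 (99.1%) were given a symbol, and 32980 a GC content, from RefSeq and GENCODE annotation of GRCm38.p6. Chromosome, autosome, flank (1 Mb) and GC-matched (within 2 GC points) ratios were computed with Python 3.11.15, numpy 2.4.6, pandas 2.3.3 and scipy 1.17.1. The treatment comparison was fitted in edgeR 4.0.16 (R 4.3.3; TMM and filterByExpr), with experiments 1 and 2 of a group summed; DESeq2 1.42.0 was an alternative. Experiments 1 and 2 were taken as 1 sample because their chi-square per degree of freedom, over genes of at least 40 reads, was close to 1. With 2 samples per group no exact permutation test can reach 0.05. The scripts were tested on simulated data. The 9 genes, the lists and the rule for naming (all 9 genes, the lowest and highest of each list, the nearest gene of at least 5 kb on each side) were chosen with earlier results of these data known. The alternatives were other references, lengths, limits, GC matching, covered fraction, flanks, tools and left-out libraries.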

Additional observations from a re-analysis of the deposited data

How the results depend on the processing

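There is no normal DNA library, so these ratios are not copy numbers, and Cdkn2b (13 to 32 reads per library), Vhl and Cdkn2a are limited by counting error. The counts of low and high genes stayed 0 under all other settings run, except that 1 gene (Cdkn2a) was low against the autosomes at a limit of 0.67. Of 108 alternative values of the ratio to the chromosome, 106 moved by less than 1 SD. Exceptions were Cdkn2a (0.664 with summed reads as reference) and Vhl (0.929 from the covered fraction). The SD is that of the same 4 samples, so leaving out 1 of them could not move a mean that far. Without dDAVP replicate 3, the ratio to the chromosome went from 0.925 to 0.773 for Trp53 and from 0.888 to 0.705 for Cdkn1a. With summed reads, the autosome ratio was 0.437 for Cdkn2a and 0.936 for Nf2. With a 3 Mb flank, the flank ratio was 0.787 for Rb1 and 0.701 for Nf2, and without dDAVP replicate 3 it was 0.622 for Cdkn2b, from 1.01. Every alternative of the treatment comparison called 0 intervals. The log2 ratio changed sign with the GC offset for Rb1 (0.14), Rbl1 (0.013), Rbl2 (0.025), Cdkn2a (0.22), Cdkn1a (-0.23) and Vhl (-0.032); the cause was not tested. Leaving out 1 library at a time, Cdkn2a ran from -0.10 to 0.10. Where that left vehicle or dDAVP with 1 sample, it was assumed to vary like the other group. Same-numbered deviations of the 2 groups had correlations of -0.379, -0.398 and -0.597. Experiments 1 and 2 were alike, so these hold only the contrast with experiment 3 and cannot decide whether experiment numbers pair the samples. Chi-square per degree of freedom was 1.68 to 1.78 between experiments 1 and 2 of dDAVP and those of vehicle. It was 7.05 and 7.22 between dDAVP experiments 1 and 2 and vehicle experiment 3, and 147.9 between dDAVP experiment 3 and vehicle experiment 3. Leaving out dDAVP replicate 3 from segments, neighbours and lists was chosen after seeing the data, and moved the median of the other tumor suppressors to 0.939. With a replicate block, 0 intervals were called and Trp53 had 0.71.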
